A study of Mus musculus with 5 samples.

Results

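Wfs1 and Necab1 are a pair of neuronal calcium-related genes with opposite shifts in the striatum of Adcy5 knock-in mice. Both were chosen because Wfs1 was higher and Necab1 lower in KI than in WT, so their levels and fold changes in that contrast are a description here and carry no test. They make up 2 genes, read by 3 of the 13665 gene features that could be tested in the series, out of 53700 features in the files. One feature lies over parts of Wfs1, one over all exons of Necab1 and one over the end of Necab1.

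The libraries were made from striatal homogenates of adult mice. The KI group (n = 2 libraries, replicates 1 and 3) carries the R419W allele of Adcy5, the gene of the main striatal adenylyl cyclase, and the WT group (n = 3 libraries, replicates 1 to 3) comes from wild-type littermates. Sex, exact age and whether KI mice carried the allele on 1 chromosome or on both were not given in the labels, and no label ties a library to a separate animal, so the spread between libraries may be in part technical. Total counts ranged from 6595105 to 7910584 per library. Levels are given in CPM, the counts relative to library size, after scaling with the trimmed mean of M values (TMM). In homogenates, fewer cells of a type and less RNA per cell cannot be told apart.

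Wfs1 encodes wolframin, a membrane protein of the endoplasmic reticulum that takes part in calcium balance and in the response to unfolded proteins. Loss of its human counterpart causes Wolfram syndrome, a disorder with diabetes, optic atrophy and neurodegeneration. Necab1 encodes a cytosolic neuronal protein with EF-hand calcium-binding motifs. Its relative Necab2 is known in striatum as a partner of an adenosine receptor and of a metabotropic glutamate receptor. In striatal output neurons, calcium release from the endoplasmic reticulum and calcium-binding proteins shape signals from dopamine and glutamate receptors.

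The features behind the 2 genes differ in kind. Their positions follow GRCm39 per the file headers, but the reads were taken to lie at GRCm38 positions, an assignment made from these data and not stated in the sources used here. Necab1 lies on chromosome 4 from 14952245 to 15149794, minus strand, and its feature (ENSMUSG00000040536) sits there with a shift of 0 bases. That feature covers 5237 of 5237 exon bases, 1056 of them coding. Wfs1 lies in GRCm38 on chromosome 5 from 36966104 to 36989205, minus strand. It is read by the feature that the files label Man2b2 (ENSMUSG00000029119), which lies over 465 of its 3787 exon bases (12.28%). Of these, 311 are in the 3' UTR and 154 are coding, in exons 7 and 8 of 8. The same feature also covers 2655 bases of Wfs1 introns and 408 bases beyond the gene, and no exon of another GRCm38 gene. How many of its counts come from introns was not tested.

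**Figure D1:**
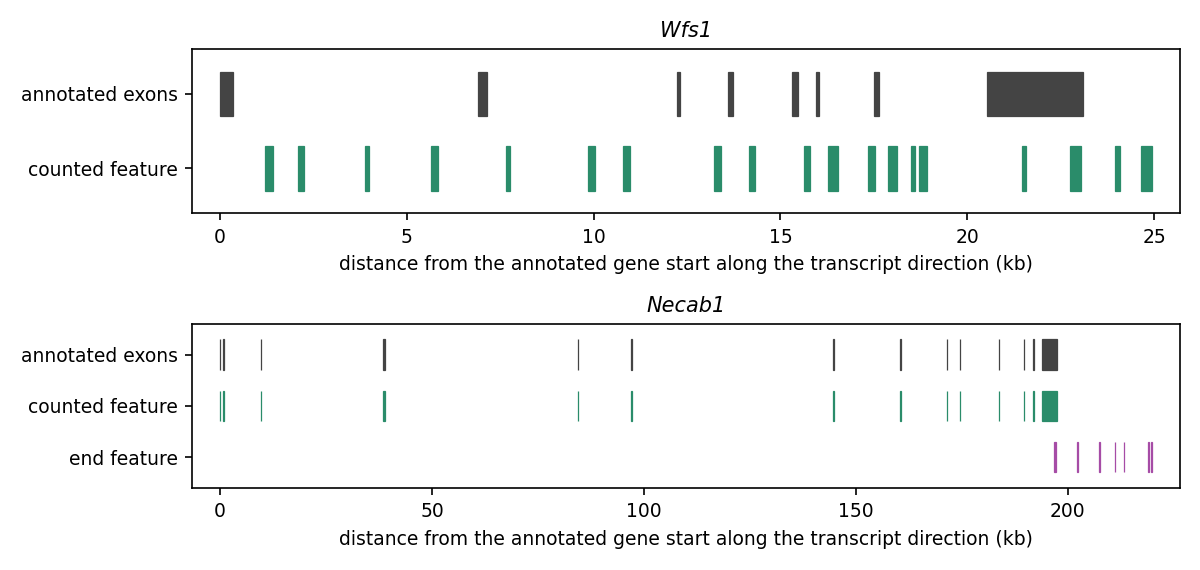
Position of annotated GRCm38 exons (dark grey) and of the counted features (green, with the end feature in purple) for Wfs1 and Necab1, as distance in kb from the annotated gene start. The Necab1 feature sits on all exons of its gene, whereas the Wfs1 feature meets exons only in 3 stretches of 311, 117 and 37 bases.

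The naming of the Wfs1 feature rests on all 465 exon bases under it, and the coding stretches among them are shown. Each is written 5' to 3' on the transcript strand from GENCODE M21 transcripts (GRCm38), with the bases that the feature covers in capitals and 15 coding bases of the transcript on each side in lower case. For Necab1 the longest exon that is coding throughout is given, exon 6 of 13.
Wfs1 exon 8, chr5:36967636-36967752, 117 bases read: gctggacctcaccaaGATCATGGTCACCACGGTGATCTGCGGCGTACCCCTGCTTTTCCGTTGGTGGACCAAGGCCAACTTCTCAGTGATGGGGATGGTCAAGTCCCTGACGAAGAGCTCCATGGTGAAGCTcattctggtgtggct
Wfs1 exon 7, chr5:36971673-36971709, 37 bases read: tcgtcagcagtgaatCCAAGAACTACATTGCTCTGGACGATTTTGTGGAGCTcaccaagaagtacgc
Necab1 exon 6, chr4:15004969-15005105, 137 bases read: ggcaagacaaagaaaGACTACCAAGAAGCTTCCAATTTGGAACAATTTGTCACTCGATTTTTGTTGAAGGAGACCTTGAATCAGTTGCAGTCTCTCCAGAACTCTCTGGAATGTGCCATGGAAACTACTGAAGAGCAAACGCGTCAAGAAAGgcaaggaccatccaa

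Wfs1 stood at 209.5, 161.9 and 204.5 CPM in WT replicates 1 to 3 and at 424.8 and 349.1 CPM in KI replicates 1 and 3. Both KI libraries lay above every WT library, and the nearest pair of libraries across the groups was 1.67-fold apart. Means were 386.9 ± 53.5 CPM in KI (SD, n = 2) and 191.9 ± 26.2 in WT (SD, n = 3), a 2.02-fold difference (log2 fold change 1.01, SE 0.14). The counts behind these levels were 1595, 1211 and 1336 for WT against 3135 and 2819 for KI. Of 2218 features with a mean of at least 100 CPM, 5 were shifted further upward in KI.

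Necab1 stood at 515.4, 553.4 and 570.5 CPM in WT and at 312.7 and 287.7 CPM in KI replicates 1 and 3. Both KI libraries lay below every WT library, with the nearest libraries 1.65-fold apart. Libraries of 1 genotype were close: the highest WT level was 1.11 times the lowest, and the same figure in KI was 1.09. For Wfs1 these figures were 1.29 and 1.22. Mean Necab1 levels were 546.4 ± 28.2 CPM in WT (SD, n = 3) and 300.2 ± 17.7 in KI (SD, n = 2), a 1.82-fold difference (log2 fold change -0.86, SE 0.11). Among the same 2218 features, 8 were shifted further downward.

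The end of Necab1 was read a second time by the feature labelled Gm11837 (ENSMUSG00000086587), an antisense gene on the opposite strand from 14929908 to 14953030. Of the Necab1 3' UTR, 410 bases near its end (chr4:14952621-14953030) lie under its exons, and the other 602 bases of this feature lie outside Necab1. The library kit keeps strand but the counting ignored it, and a read pair could be counted on both features, so this is not an independent measurement and cannot be told apart from antisense transcripts. It held 109.4, 107.5 and 116.6 CPM across WT libraries against 62.33 and 46.93 across KI libraries, again with no overlap of the groups. The difference was 2.04-fold (log2 fold change -1.03, SE 0.16), close to that of the whole gene. For each 100 counts on the Necab1 feature, the end feature held 21.2, 19.4 and 20.4 in WT and 19.9 and 16.3 in KI. KI replicate 3 was the lowest of the 5, and KI replicate 1 lay within the WT range.

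**Figure D2:**
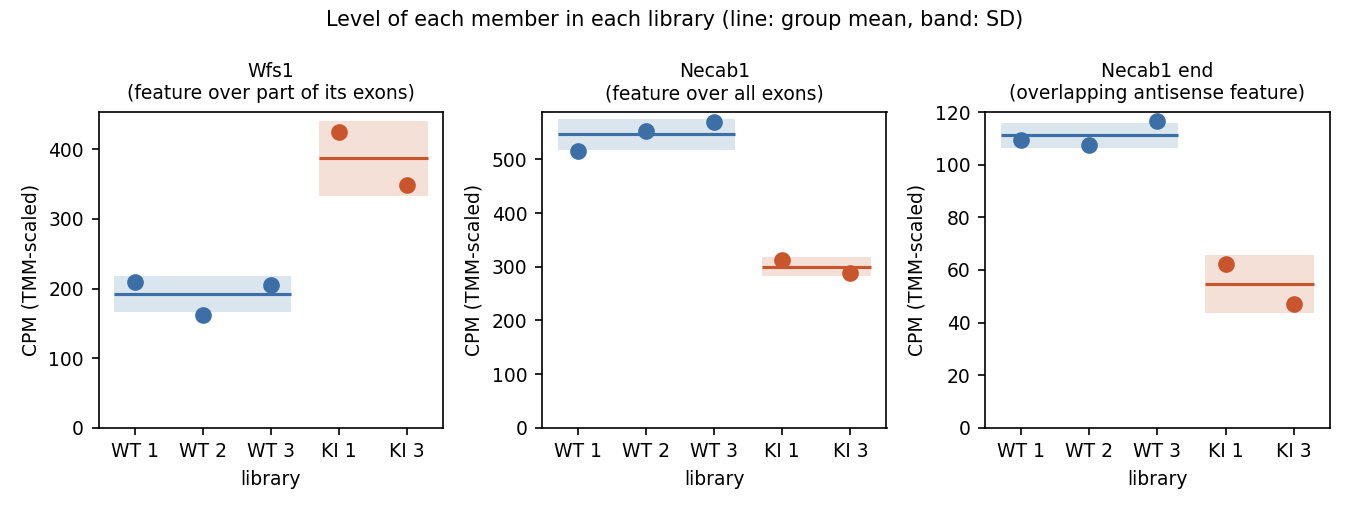
Level in CPM (TMM-scaled) of the Wfs1, Necab1 and Necab1 end features in each library, with WT in blue and KI in orange. Lines are group means and bands are SD. Wfs1 reaches 209.5 CPM at most in WT against 349.1 at least in KI, and Necab1 lies at 515.4 CPM or more in WT against 312.7 or less in KI.

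In 3 of 3 features both KI libraries lay beyond all WT libraries, which the choice of the genes fixes. Over all 13665 features tested, 22.4% were separated in this way, 11.3% with KI above and 11.1% with KI below. An edgeR quasi-likelihood adjusted p under 0.05 was reached by 0.102% of all features (0.0439% higher and 0.0585% lower in KI), and nothing about the pair is read from that share, since the pair was picked from it.

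The ratio of Wfs1 to Necab1 counts needs no library scaling and puts both shifts in 1 number for each library. It compares features of unequal length, so its size is not a ratio of transcripts, but it can be compared between libraries. In WT replicate 1 it was 0.406 (95% exact binomial interval 0.383 to 0.431), in WT replicate 2 it was 0.292 (0.274 to 0.312) and in WT replicate 3 it was 0.358 (0.336 to 0.382). In KI replicate 1 it was 1.36 (1.29 to 1.43) and in KI replicate 3 it was 1.21 (1.15 to 1.28). Necab1 thus had more counts than Wfs1 in each WT library and fewer in both KI libraries. Intervals cover counting error only.

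On the log2 scale the ratio averaged -1.52 ± 0.24 in WT (SD, n = 3) and 0.36 ± 0.11 in KI (SD, n = 2). The difference of 1.88 is a 3.68-fold change in the ratio, against 2.99-fold between the nearest and 4.64-fold between the farthest libraries of the groups. WT libraries also differed among themselves beyond their counting intervals: the interval of WT replicate 2 lay below those of WT replicates 1 and 3. Among the WT libraries WT replicate 2 had the lowest Wfs1 level, while WT replicate 1 had the lowest Necab1 level.

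**Figure D3:**
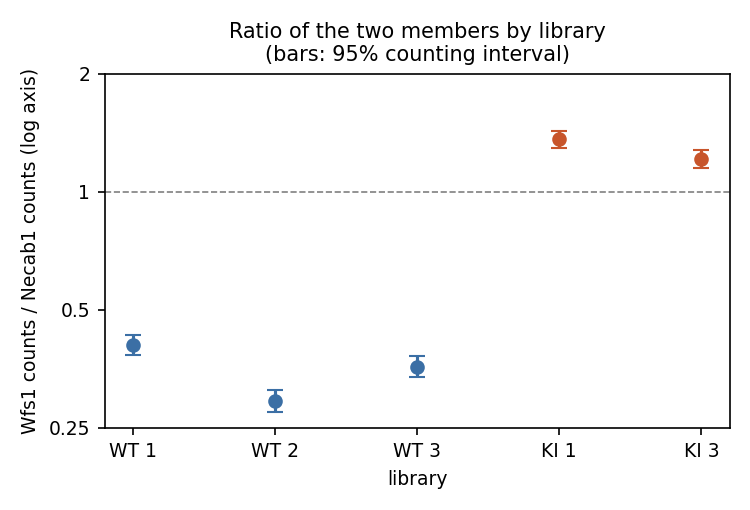
Counts on the Wfs1 feature divided by counts on the Necab1 feature in each library, on a log axis, with 95% exact binomial intervals. The WT libraries lie between 0.292 and 0.406 and the KI libraries at 1.21 and 1.36, on opposite sides of the dashed line at 1.

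Features next to the pair were examined too. Within 250 kb of either gene 11 other features were tested, 8 around Wfs1 and 3 around Necab1. Of these, 0 had an edgeR adjusted p under 0.05, against 0.102% of all features. An unadjusted edgeR p under 0.05 was reached by 0 of them, against 6.4% of all features. Their groups were separated in 3 of 11 cases, against 22.4% over all features. Ppp2r2c, a regulatory subunit gene of protein phosphatase 2A whose feature lies 11988 bases from Wfs1, averaged 1379 ± 99.8 CPM over the WT libraries (SD, n = 3) against 1331 ± 30.6 over the KI libraries (SD, n = 2), a log2 fold change of -0.05 (SE 0.09). Man2b2, a lysosomal mannosidase gene, was read by another feature (labelled D5Ertd579e) at 11.9 ± 3.10 CPM in the WT group against 18.2 ± 1.07 in the KI group, with a log2 fold change of 0.61 (SE 0.31). D5Ertd579e, read over 65 exon bases with 8 to 35 counts per library, had the neighbour shift of greatest size, -1.28 (SE 0.74), and both KI libraries lay below all WT libraries.

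On the Necab1 side, the deubiquitinase gene Otud6b had a log2 fold change of -0.04 (SE 0.11). For the phosphoinositide phosphatase gene Pip4p2 it was -0.08 (SE 0.14) and for the membrane protein gene Tmem64 it was 0.17 (SE 0.12). These 3 genes lie at the same positions in both builds, and each was read over its own exons. The feature that the files label Wfs1 lies 157344 bases above the gene's GRCm38 position, over Jakmip1 and Gm1043. It had WT levels of 123.1, 140.3 and 136.8 CPM against KI levels of 114.2 and 128.5, and its levels overlapped between the groups (log2 fold change -0.14, SE 0.13). Read by label alone, Wfs1 would therefore be listed with an edgeR adjusted p of 0.9971.

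Relatives of the pair could be measured only in part. Of the other NECAB genes, Necab3 was read over 191 exon bases at 17.99, 15.9 and 10.71 CPM across WT libraries against 12.06 and 7.678 across KI libraries (log2 fold change -0.59, SE 0.36), with overlapping groups. No feature could be assigned to Necab2 or to Cisd2, the second gene of Wolfram syndrome.

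The wider machinery of the pair was described with 7 lists of 248 genes, of which 114 had a feature and 108 were tested. In the edgeR test 0 of 108 had an adjusted p under 0.05 (0.102% of all features did). An unadjusted p under 0.05 was reached by 17 (5 with higher and 12 with lower KI levels). DESeq2 called 6 of the 108, against 123 of the 6710 features to which it gave an adjusted p. Limma voom called 1 of the 108, against 52 of 13665 features. The share with an unadjusted p under 0.05 was 15.7%, against 6.4% of all features and 8.17% of the 7936 features with a mean of at least 10 CPM. Groups were separated for 27.8% of the genes (11 with KI above, 19 with KI below), against 22.4% of all features and 24.2% of those with at least 10 CPM. Without WT replicate 1, when 161 features were called in all, edgeR called 4 EF-hand genes, 3 of the calmodulin kinase and calcineurin list, 1 channel gene and 1 pump or exchanger gene. A fold change at least as large as that of Necab1 was found for 6 of the 108. Nothing is read from this count, since Necab1 was chosen for its shift and the share over all features was not taken. The 108 genes had a median log2 fold change of -0.056, beside -0.0021 for all features.

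The folding and stress genes belong to the endoplasmic reticulum, the compartment of wolframin. This list held 51 genes, of which 16 had a feature and were tested. Hspa5, Xbp1, Ddit3 and Atf4 were among those without one, so most of the list could not be described. Of the 16 tested members 9 were higher and 7 lower, with log2 fold changes from -0.45 to 0.20, a median of 0.03 and 0 calls. Atf6, a membrane-bound transcription factor that senses unfolded proteins, had WT levels of 150.4, 180.2 and 167.8 CPM against KI levels of 130.5 and 112.2 (-0.45 in log2 units, SE 0.14, adjusted p = 0.3709 by edgeR). Both KI libraries were below all WT libraries. Hyou1, a chaperone of the endoplasmic reticulum, averaged 192.8 ± 16.3 CPM over the WT libraries (SD, n = 3) against 221.5 ± 4.31 over the KI libraries (SD, n = 2), with a shift of 0.20 in log2 units (SE 0.12, adjusted p = 0.8938 by edgeR). Its KI libraries were above all WT libraries.

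Genes of calcium release from and uptake into the endoplasmic reticulum comprised 22 tested members, 7 higher and 15 lower, with a list median (log2) of -0.06 and 0 calls. Atp2a2, the calcium pump of the endoplasmic reticulum, was read by a feature that also lies over Gm43360. It had WT levels of 1409, 1357 and 1371 CPM against KI levels of 1162 and 1091 (-0.29 in log2 units, SE 0.09, adjusted p = 0.3848 by edgeR). The groups did not overlap. Casq2, a calcium store protein best known from heart muscle, had few reads, namely 28, 29 and 30 counts for WT against 2 and 6 for KI over 49 exon bases (edgeR adjusted p = 0.4291).

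Genes that carry calcium across the plasma membrane or into mitochondria comprised 9 tested members, 2 higher and 7 lower, with a list median (log2) of -0.16 and 0 calls. Atp2b1, a plasma membrane calcium pump, had WT levels of 463.1, 699.1 and 697.0 CPM against KI levels of 323.9 and 451.7 (-0.68 in log2 units, SE 0.18, adjusted p = 0.2457 by edgeR). WT replicate 1 was close to the KI libraries. Slc8a2, a sodium-calcium exchanger, averaged 214.7 ± 20.4 CPM over the WT libraries against 155.1 ± 37.8 over the KI libraries (-0.47 in log2 units, SE 0.16, adjusted p = 0.4763 by edgeR).

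Subunits of voltage-gated calcium channels split evenly, with 7 higher and 8 lower of 15 tested, a median of -0.08 and 0 calls. Cacnb3, an auxiliary beta subunit, had WT levels of 103.1, 140.5 and 152.1 CPM against KI levels of 82.52 and 79.87 (-0.70 in log2 units, SE 0.17, adjusted p = 0.1608 by edgeR). The DESeq2 Wald test called it (adjusted p = 0.01766) and limma voom did not (adjusted p = 0.1289). Cacna2d2, an alpha2-delta subunit, had a shift of 0.69 in log2 units (SE 0.25, adjusted p = 0.5624 by edgeR), with both KI libraries above all WT libraries.

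The EF-hand proteins, the family that Necab1 belongs to, were represented by 24 tested members, 13 higher and 11 lower, with log2 fold changes from -0.98 to 0.53, a median of 0.02 and 0 calls. Hpcal4, a neuronal calcium sensor, had WT levels of 1422, 1657 and 1464 CPM against KI levels of 1899 and 2257. Both KI libraries were above all WT libraries (0.46 in log2 units, SE 0.10, adjusted p = 0.1046 by edgeR), and it was called by DESeq2 (adjusted p = 0.002854) as well as by voom (adjusted p = 0.03395). Rasgrp2, a calcium-regulated exchange factor enriched in striatal output neurons, had WT levels of 112.3, 191.5 and 162.1 CPM against KI levels of 63.42 and 93.87 (-0.98 in log2 units, SE 0.22, adjusted p = 0.1081 by edgeR). DESeq2 called it (adjusted p = 0.001901) and limma voom did not (adjusted p = 0.07189). Calm2, a calmodulin gene read over 31 exon bases and chosen after its values were seen, was also called by DESeq2 alone (log2 fold change -0.37, adjusted p = 0.01834).

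Among calmodulin-dependent kinases, calcineurin and their partners 5 were higher and 9 lower of 14 tested, with a median of -0.15 and 0 calls. Camk2n1, an inhibitor of calmodulin kinase II, had WT levels of 36.12, 66.83 and 73.77 CPM against KI levels of 29.68 and 22.17 over 101 exon bases (-1.18 in log2 units, SE 0.28, adjusted p = 0.1548 by edgeR). Ppp3r1, the regulatory subunit of calcineurin, which also counts among the EF-hand proteins, averaged 161.1 ± 11.7 CPM over the WT libraries against 113.7 ± 3.65 over the KI libraries (-0.50 in log2 units, SE 0.13, adjusted p = 0.2061 by edgeR). DESeq2 called both (adjusted p = 0.01028 and 0.04238).

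The list around the receptors that NECAB proteins bind, with related signalling genes, had 10 tested members, 5 higher and 5 lower, a median of -0.08 and 0 calls. Shank2, a scaffold of the postsynaptic density, had WT levels of 5.254, 2.94 and 4.286 CPM against KI levels of 8.808 and 8.297 (1.04 in log2 units, SE 0.47, adjusted p = 0.77 by edgeR).

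**Figure D4:**
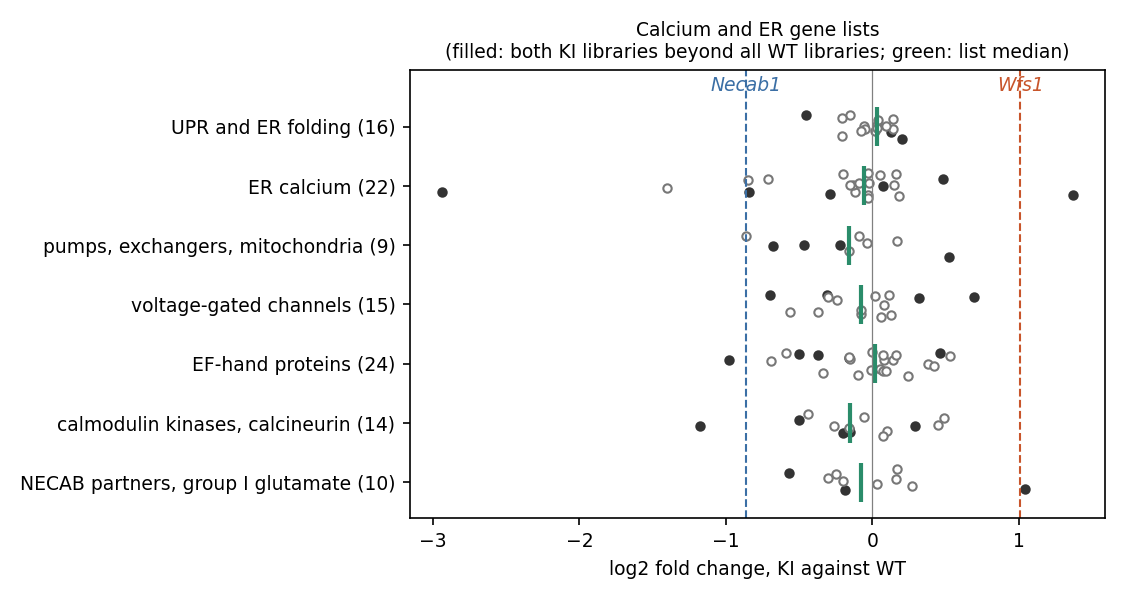
Log2 fold change of KI against WT for each tested gene of the 7 lists (number tested in parentheses), with filled points where both KI libraries lie beyond all WT libraries and green bars at list medians. Medians lie between -0.16 and 0.03. Most genes lie between the dashed lines at the values of Necab1 (-0.86) and Wfs1 (1.01), which were chosen for their shifts.

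The libraries differed in markers of tissue makeup, and these values stand beside the pair. Penk, the enkephalin gene of striatal output neurons, was at 6722, 8271 and 7355 CPM in WT and at 5296 and 5903 CPM in KI. Tac1 was at 746.3 to 1030 CPM over the 5 libraries, so markers of striatum were present in each library. Cortical projection neuron markers (7 of 15 with a feature, none at 0 in a library) summed to 228.8, 480.2 and 406.1 CPM over WT replicates 1 to 3 against 262.6 and 174.4 for KI. Slc17a7, their glutamate transporter, had WT levels of 73.55, 286.7 and 210.3 CPM against KI levels of 96.07 and 22.04. Of the 7 tested members of this list 2 were higher and 5 lower. With the Slc17a7 level as a covariate, an alternative chosen after the data were seen, the log2 fold change of Necab1 was -0.75 and that of Wfs1 1.01.

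Spiny projection neuron markers (9 of 22 with a feature) summed to 9197 to 12110 CPM in WT and to 7908 and 8868 in KI, and Penk made up most of the sum. Of 8 tested members 5 were lower in KI: Rgs9 (log2 fold change -1.03), Pde10a (-0.63), Penk (-0.41), Foxp1 (-0.29) and Gng7 (-0.09). The 3 higher members were Tac1 (0.14), Arpp21 (0.22) and Ebf1 (0.10). Both KI libraries lay below all WT libraries for Rgs9 and Penk (11.1% of all features did). By edgeR 0 of the 8 were called, and 2 at a false discovery rate of 0.10 (67 of all features). DESeq2 and limma voom each called 2 of this list, against 123 and 52 features in all. GABAergic interneuron markers (6 of 15 with a feature) summed to 1136, 2211 and 2150 CPM over WT replicates 1 to 3 against 1010 and 1110 for KI. Most of this sum was Cnr1, the cannabinoid receptor gene, at 727.8, 1853 and 1771 CPM over the WT replicates and 596.9 and 729.6 for KI. Of the 6 tested members 3 were higher and 3 lower, and the list median (log2) was 0.01. Thalamic markers (6 of 7 with a feature) were highest in WT replicate 1, at 317.3 CPM, and at 58.2 to 171.3 CPM in the other libraries. Hypothalamic and ventral forebrain markers (3 of 14 with a feature) summed to 411.6, 298.2 and 307.0 CPM over WT replicates 1 to 3 against 481.0 and 382.0 for KI. Markers of hippocampal CA1 and amygdala, regions known for high Wfs1, summed to 17.6 to 24.49 CPM over 3 of 8 genes, with overlapping groups. The part of cell makeup in either shift was not tested. The choroid plexus gene Ttr was at 2093 CPM in KI replicate 3 and at 28.05 to 61.84 CPM in the other libraries. Without KI replicate 3, the log2 fold change was 1.15 for Wfs1 and -0.80 for Necab1.

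Genes whose levels ran most like those of the pair were found by the root mean square difference of log2 CPM profiles, each centred on its mean over the 5 libraries, among 5378 features over protein-coding genes with a mean of at least 10 CPM. For Wfs1 the nearest was Usp29, an imprinted gene (0.0995 log2 units), at 178.1 ± 8.23 CPM in the WT group against 372.7 ± 29.6 in the KI group. Its feature also lies over Gm44863 and Zim3. It was followed by Txnip, a regulator of thioredoxin and glucose uptake (0.145), the adhesion receptor gene Adgrg1 (0.16) and Smc5 of a chromosome maintenance complex (0.171). The Txnip feature also lies over Gm15441, and Smc5 was read over only 47 exon bases. For Necab1 the nearest were the stress-response gene Nupr1 (0.0814), Prr5l (0.0969), the kinase gene Pak4 (0.102) and the sorting receptor gene Sort1 (0.103). Sort1 was the most abundant of these 4, at 206.1 ± 24.2 CPM in the WT group against 124.5 ± 0.237 in the KI group. Prr5l was read over only 73 exon bases. With 5 libraries in 2 groups, this measure depends largely on the difference between the groups.

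The same measure between Wfs1 and Necab1 restates their choice for opposite shifts and is given as a description. The Wfs1 profile differed from the Necab1 profile with its sign turned by 0.192 log2 units, against 0.933 with its sign kept.

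The 300-base window around the RefSeq start of Wfs1 (GRCm38.p6, chr5:36988933-36989232) was searched on both strands for motifs of the unfolded protein response and of cAMP signalling. In GENCODE M21 the gene starts at 36989205 on the minus strand, so most of this window lies inside its first exon. Sequence further upstream was not searched, so the matches below do not describe the region before that start. It held 0 matches to the endoplasmic reticulum stress element (0.119% of 32851 RefSeq promoter windows held one), 0 to its second form (0.0365%), 0 to the unfolded protein response element TGACGTGG (0.676%) and 0 to the cAMP response element TGACGTCA (1.79%). It held 1 CCAAT box, which is part of the first of these motifs and occurs in 37.4% of windows. The match lies 93 bases before the RefSeq start and inside the first Wfs1 exon of GENCODE M21, and is shown with its motif in capitals as read on the minus strand.
Wfs1 CCAAT box, chr5:36989059-36989087: cagcacatagtgATTGGcaggcttgccgg
A match is a description of letters in this window and says nothing about binding.

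The shifts of the pair kept their direction in each of 12 alternative fits, a direction that their choice fixes. The log2 fold change of Wfs1 ranged from 0.86, without KI replicate 1, to 1.15, without KI replicate 3. That of Necab1 ranged from -0.93, without KI replicate 1, to -0.75, with the Slc17a7 covariate. The end feature ranged from -1.25 to -0.83.

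**Figure D5:**
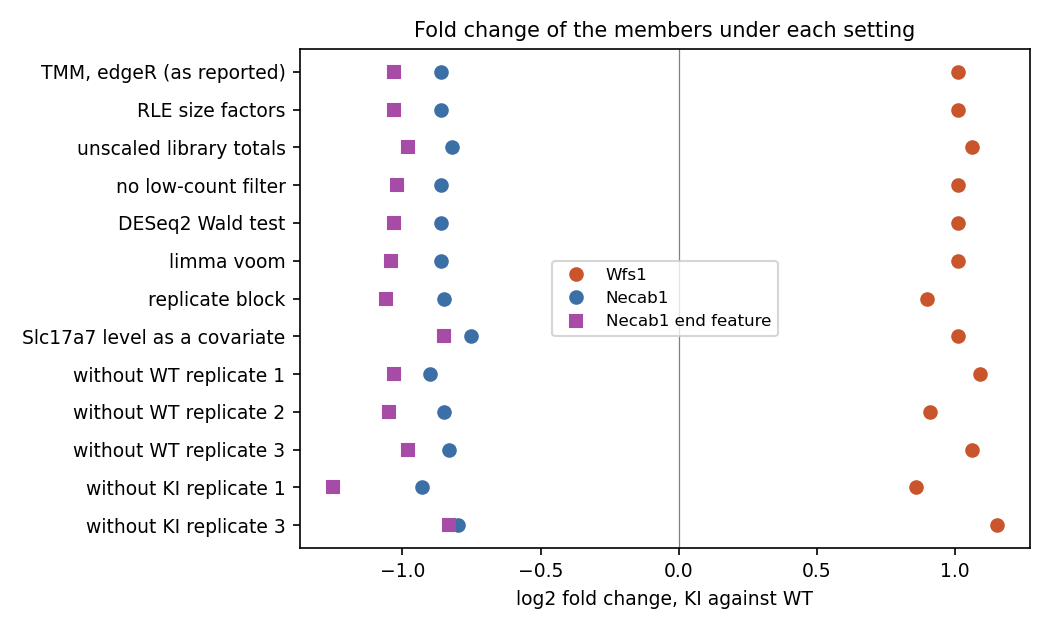
Log2 fold change of KI against WT for Wfs1, Necab1 and the Necab1 end feature in the reported fit and in 12 alternatives (other scalings, tests, filters, a replicate block, a covariate and leaving out 1 library). Wfs1 stays between 0.86 and 1.15 and Necab1 between -0.93 and -0.75, each on its own side of 0.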

How the data were processed

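Bulk RNA libraries of mouse striatum (WT n = 3, KI n = 2) were analysed from the deposited gene counts. Per the file headers, the authors counted fragments with featureCounts 2.0.1 (version per the submitters' processing notes) on Ensembl GRCm39 genes, over all overlapping features and without strand. No aligner or alignment build is named (not given in the sources used here).

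Features were named by the GRCm38 exons (GENCODE M21) under their positions with bedtools 2.31.1: 16422 of 53700 features got 1 name, and 3377 (41.31% of counts) lay over several genes. Genes whose reads fall on those could not be described. Counts of 6595105 to 7910584 per library were filtered (filterByExpr), TMM-scaled and tested with edgeR 4.0.16 (quasi-likelihood, two-sided, Benjamini-Hochberg over 13665 features, threshold 0.05) in R 4.3.3. A floor of 3 counts is 0.3792 to 0.4549 CPM, for counting error only. The biological coefficient of variation was 29.8%. Since no label names separate animals, p-values reflect only how far these libraries differ, which may be technical. DESeq2 1.42.0 and limma 3.58.1 (voom), other scalings and filters and leaving out libraries were alternatives.

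The members and lists were chosen with earlier results of these data known. Named genes are the pair, neighbours within 250 kb, the NECAB relatives and Cisd2, 2 genes per list with the smallest p, Slc17a7, Neurod2 and Ttr, and the 4 nearest profiles of each gene. One gene that the rule names is not reported here. Penk, Tac1, Arpp21, Ebf1, Rgs9, Pde10a, Foxp1, Gng7, Cnr1 and Calm2 were added after their values were seen. Sequences came from GENCODE M21 transcripts and, for the promoter window, RefSeq. The promoter table matched 1 of the 2 genes.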

Additional observations from a re-analysis of the deposited data

How the results depend on the processing

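Across all features, the edgeR test called 14 (6 higher and 8 lower in KI). It called 183 with no low-count filter, 67 at a false discovery rate of 0.10 and 2 with the Slc17a7 level as a covariate, which was chosen after the data were seen. By DESeq2 there were 123 calls and by limma voom 52. Leaving out 1 library gave 2 to 161 calls: 161 without WT replicate 1, 3 without WT replicate 2, 2 without WT replicate 3, 30 without KI replicate 1 and 6 without KI replicate 3. Unscaled totals called 16, with 9 higher and 7 lower, and shifted the median of all features by 0.0488. The cause of these differences was not tested. With the replicate number as a block, 154 features were called, and the log2 fold change was 0.90 for Wfs1 and -0.85 for Necab1. The numbers share no stated litter or day, so they were not taken as pairs. Deviations of log2 CPM from the group means correlated at 0.111 between WT and KI replicate 1. Between WT and KI replicate 3 the value was 0.0697. With 2 KI libraries, the KI deviations mirror each other, so these values are not separate checks and cannot decide on pairing. Wfs1 lay between 0.86 and 1.15 and Necab1 between -0.93 and -0.80 when 1 library was left out, and Necab1 was at -0.75 with the Slc17a7 covariate. The difference in log2 ratio of 1.88 lay between 1.75 and 1.99 when 1 library was left out, and was 2.05 with the end feature in place of Necab1. Called members per calcium or folding list reached at most 4, for EF-hand proteins by DESeq2 and without WT replicate 1. With the replicate block, 3 EF-hand genes, 3 genes of the endoplasmic reticulum calcium list and 1 pump or exchanger gene were called. With 12.28% of its exon bases read, Wfs1 rests on a small part of its transcript.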
